A study of Mus musculus with 12 samples.

Results

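The genes described here are *Fos*, *Fosb*, *Fosl1*, *Fosl2*, *Jun*, *Junb*, *Jund*, *Atf3* and *Egr1*, which encode subunits of the transcription factor AP-1 or belong to the immediate early genes. They were chosen by name, and all 9 were found among the 54532 genes of each of the 2 expression tables, for small intestinal crypts and for colon tumors. RNA-seq was used to ask how the loss of ieCtnnb1, an intestinal enhancer of *Ctnnb1* (the gene of β-catenin), alters transcription in both tissues. Crypts came from adult mice that were Wild type or ieCtnnb1KO. Tumors came from mice with the genotypes APCmin/+ and APCmin/+;ieCtnnb1KO, so that both tumor groups carried the Min allele of *Apc* and the tumor controls were not wild type. Tumors were taken at 5 months of age. Each of the 4 groups had 3 libraries. The deletion was homozygous and made in the germline, so it was not restricted to the epithelium. Crypts were released from the small intestine by 2 hours in cold EDTA and 5 minutes of shaking, whereas tumors were used as tissue. The total time between death and lysis, to which immediate early genes are sensitive, is not given in the sources used here.

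Expression was given as FPKM (fragments per kilobase of gene after scaling for library depth), with each tissue scaled in its own table. Fragments on genes were 14457896, 16042558 and 16074777 in the wild-type crypt libraries 1 to 3, and 15717741, 15819430 and 14685020 in the ieCtnnb1KO crypt libraries. The tumor libraries held 15895487, 16156712 and 14648696 fragments in APCmin/+ mice and 16143130, 16041000 and 16064312 in APCmin/+;ieCtnnb1KO mice. Libraries are numbered as in the labels, and no pairing by number is given in the sources used here. The labels call them replicates and the legends of the study count them as mice, so the spread between libraries was taken as that between mice.

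AP-1 is a dimer of a Jun protein with a Fos, Jun or ATF protein, and it binds DNA through a basic leucine zipper. Immediate early genes such as *Fos*, *Fosb*, *Junb*, *Atf3* and *Egr1* are transcribed within minutes of a growth factor, stress or wounding signal, through MAP kinases and the factors SRF, ETS and CREB, and their mRNAs decay fast. In the intestine AP-1 is known for its part in repair and in tumors with active Wnt signaling, and dissection and dissociation of tissue are known to induce the same genes.

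*Ctnnb1*, the gene the deleted enhancer belongs to, was examined first. Wild-type crypts had 121, 134 and 122.7 FPKM and ieCtnnb1KO crypts 102, 104 and 105. APCmin/+ tumors had 299, 364 and 358 FPKM and APCmin/+;ieCtnnb1KO tumors 279, 248 and 250. Each knockout library was below each control library of its tissue. Groups did not overlap, in either direction, for 11.9% of all tested genes in crypts and 22.1% in tumors. The log2 fold change of FPKM + 0.5 was -0.28 in crypts (SE 0.118, adjusted p = 0.849 in limma) and -0.39 in tumors (SE 0.128, adjusted p = 0.303 in limma), and the exact permutation p was 0.1 in both, the smallest that 3 libraries against 3 allow.

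Several libraries stood apart in other genes. *Krt8* was the most abundant epithelial marker in both tissues (mean 1669 and 1588 FPKM). *Hoxb13*, a gene of the distal colon, was listed at 0 in all 6 crypt libraries and had the highest level of the colon markers in tumors (mean 96.9 FPKM), whereas *Prdx6b* of the same list was at 0 in all 12 libraries. The summed FPKM of 8 stomach genes was 38.7 and 38.01 in wild-type crypt libraries 1 and 2, and between 1.95 and 3.2 in the other 4 crypt libraries, with *Pgc* the most abundant. Paneth and stem cell markers summed to 51420 FPKM in wild-type crypt library 3, against 17910 to 27040 in the other crypt libraries, with *Defa24* the most abundant. The same library had the highest sum of enterocyte markers, 11640 FPKM, and wild-type crypt library 1 had the lowest, 3447. *Fabp2* was the most abundant of these markers on the mean over the 6 crypt libraries. The share of fragments on mitochondrial genes was 13.5%, 19.03% and 15.2% in wild-type crypts, 11.5%, 10.7% and 14.9% in ieCtnnb1KO crypts, and between 1.45% and 2.27% in tumors. *Xist*, the RNA that coats the inactive X chromosome, was at 113.9 and 61.4 FPKM in tumor library 3 of each genotype and at 0.0623 or less in the other 10 libraries. *Xist* was chosen after its values were seen.

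The letters TGACG, which lie within the CREB and ATF site TGACGTCA, were found in the promoters of *Fos*, *Fosb*, *Junb* and *Atf3*. RefSeq windows of 300 bases (GRCm38.p6, 250 before to 50 after the start) were matched for 7 of the 9 genes. *Fosl1* and *Egr1* are named only. The 4 windows are shown because these were the genes with TGACG on either strand, chosen after the search. They read 5′ to 3′ on the strand of the gene, with TGACG or its reverse complement CGTCA in capitals, and cover chr12:85473640-85473939 (+ strand) for *Fos*, chr7:19309996-19310295 (- strand) for *Fosb*, chr8:84978699-84978998 (- strand) for *Junb* and chr1:191183284-191183583 (- strand) for *Atf3*.
Fos: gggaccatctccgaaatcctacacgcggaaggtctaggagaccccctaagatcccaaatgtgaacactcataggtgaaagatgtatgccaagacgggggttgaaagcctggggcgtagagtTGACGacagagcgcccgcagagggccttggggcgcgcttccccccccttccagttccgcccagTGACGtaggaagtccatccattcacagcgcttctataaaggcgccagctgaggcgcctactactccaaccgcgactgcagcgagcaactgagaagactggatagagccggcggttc
Fosb: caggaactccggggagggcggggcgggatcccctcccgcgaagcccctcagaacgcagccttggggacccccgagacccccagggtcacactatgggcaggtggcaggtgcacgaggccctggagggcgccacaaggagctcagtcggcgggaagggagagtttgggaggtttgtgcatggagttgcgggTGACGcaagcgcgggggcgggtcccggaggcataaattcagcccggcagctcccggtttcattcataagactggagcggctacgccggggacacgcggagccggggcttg
Junb: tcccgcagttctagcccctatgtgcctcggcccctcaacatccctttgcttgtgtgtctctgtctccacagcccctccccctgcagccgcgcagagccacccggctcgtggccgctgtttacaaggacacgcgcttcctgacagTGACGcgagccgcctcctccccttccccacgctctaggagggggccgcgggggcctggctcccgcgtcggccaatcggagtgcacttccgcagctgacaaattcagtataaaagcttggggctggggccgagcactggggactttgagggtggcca
Atf3: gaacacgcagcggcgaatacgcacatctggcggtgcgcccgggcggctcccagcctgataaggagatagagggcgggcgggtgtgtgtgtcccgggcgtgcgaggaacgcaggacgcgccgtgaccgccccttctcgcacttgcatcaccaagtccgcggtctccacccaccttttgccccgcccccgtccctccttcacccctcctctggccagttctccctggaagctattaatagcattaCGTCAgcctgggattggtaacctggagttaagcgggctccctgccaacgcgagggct
Counted from the start of the gene, the capitals begin at -129 and -66 in *Fos*, -60 in *Fosb*, -106 in *Junb* and -7 in *Atf3*, where they stand on the opposite strand. The start that RefSeq gives for *Atf3* lies inside the gene model of the tables. Of all 20484 windows searched on both strands, 22.9% held TGACG. The whole site TGACGTCA was in 0 of the 7 windows (2.24% of all), as were the AP-1 site TGANTCA (7.42% of all), the ETS core CCGGAA (17.8%) and the CArG box of SRF (1.54%). GCGNGGGCG, the letters of an EGR site, was in the windows of *Fosb* and *Fosl2* (6.79% of all), and TATAA in those of *Fos* and *Junb* (23.1%). A match is a description of letters and not of binding, and a site outside these windows was not searched for.

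*Fos* (ENSMUSG00000021250, chr12:85473890-85477273, + strand, 4 exons in its longest transcript) encodes the founding Fos protein. Its level was 35.7, 51.2 and 81.9 FPKM in wild-type crypts and 18, 55.6 and 65.4 in ieCtnnb1KO crypts. The lowest of the 6 was knockout library 1 and the highest wild-type library 3, and the groups overlapped. The tumor values were 33, 20.05 and 39 FPKM in APCmin/+ and 38.2, 42.9 and 39.9 in APCmin/+;ieCtnnb1KO mice. The 3 knockout tumors lay close together, 2 of them above every control, and control library 2 was low, while knockout library 1 lay under control library 3. On the mean, *Fos* was at 56.3 ± 23.5 FPKM (SD, n = 3) in wild-type crypts, 46.4 ± 25.1 in ieCtnnb1KO crypts, 30.7 ± 9.68 in APCmin/+ tumors and 40.3 ± 2.37 in APCmin/+;ieCtnnb1KO tumors.

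*Fosb* (ENSMUSG00000003545, chr7:19302696-19310051, - strand, 4 exons) encodes a further Fos protein with a transactivation domain. It was at 2.89, 0.251 and 0.399 FPKM in wild-type crypts and 0.502, 1.28 and 0.422 in ieCtnnb1KO crypts, on 24 to 279 fragments. Wild-type library 1 was 11.5 times library 2, and the knockout libraries lay between them. Tumors had 1.39, 1.29 and 6.62 FPKM in APCmin/+ and 4.02, 3.86 and 5.28 in APCmin/+;ieCtnnb1KO mice. Control library 3 was the highest of the 6 tumors and the other 2 controls were the lowest, so that the groups overlapped.

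*Fosl1* (ENSMUSG00000024912, chr19:5447703-5455945, + strand, 4 exons) encodes FRA1, which lacks the transactivation domain of FOS and is often high in carcinomas. In crypts it was at 0.378, 0.0383 and 0.523 FPKM in wild-type and 0.108, 0.315 and 0.417 in ieCtnnb1KO libraries, on 1 to 14 fragments. A difference between genotypes was not detectable at this depth, and the gene was under the minimum mean of 0.5 FPKM for the fit. Tumor levels were 5.32, 5.93 and 9.91 FPKM in APCmin/+ and 8.3, 6.25 and 10.9 in APCmin/+;ieCtnnb1KO libraries. Library 3 was the highest of either tumor group, and the groups overlapped. *Fosl2* (ENSMUSG00000029135, chr5:32135801-32157842, + strand, 4 exons) encodes FRA2, the other Fos protein without that domain. It was at 9.98, 15.1 and 18.4 FPKM in wild-type crypts and 9.49, 13 and 16.7 in ieCtnnb1KO crypts, with library 1 the lowest of either group. In tumors it lay between 33.4 and 40.3 FPKM in all 6 libraries, and the controls spanned 36 to 37.03.

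*Jun* (ENSMUSG00000052684, chr4:95049034-95052222, - strand, 1 exon) encodes c-Jun, the main activating partner of Fos proteins. It was at 20.6, 17.6 and 18.3 FPKM in wild-type crypts and 16.7, 15.2 and 15.9 in ieCtnnb1KO crypts. Every knockout library was below every wild-type library, the nearest being 16.7 and 17.6 FPKM. Levels in tumors were 134, 139 and 141 FPKM in APCmin/+ and 133, 113 and 151 in APCmin/+;ieCtnnb1KO libraries. The knockout tumors held both the lowest and the highest value.

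*Junb* (ENSMUSG00000052837, chr8:84974484-84978718, - strand, 1 exon) encodes a Jun protein that can also restrain c-Jun. It was at 24.8, 35 and 72.9 FPKM in wild-type crypts and 31.95, 41.5 and 29 in ieCtnnb1KO crypts, and the wild-type libraries held both the lowest and the highest value. Tumor libraries had 102.5, 81.9 and 93.9 FPKM in APCmin/+ and 106, 99.5 and 133 in APCmin/+;ieCtnnb1KO libraries. Knockout libraries 1 and 3 exceeded every control, and knockout library 2 lay between controls 1 and 3.

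*Jund* (ENSMUSG00000071076, chr8:70698949-70700616, + strand, 1 exon) encodes the Jun protein with the steadiest expression in most tissues. It was at 34.4, 54 and 55.5 FPKM in wild-type crypts and 51.7, 56.7 and 50.8 in ieCtnnb1KO crypts, where wild-type library 1 alone was low and the groups overlapped. Among tumors *Jund* was at 61.95, 65.1 and 62.1 FPKM in APCmin/+ and 84.6, 82.5 and 95.9 in APCmin/+;ieCtnnb1KO libraries. All 3 knockout tumors were above all 3 controls. The means were 63.1 ± 1.75 FPKM (SD, n = 3) and 87.7 ± 7.21 (SD, n = 3), a ratio of 1.39.

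*Atf3* (ENSMUSG00000026628, chr1:191170296-191218039, - strand, 4 exons) encodes a stress-induced ATF protein that dimerizes with Jun proteins. It was at 2.34, 4.8 and 4.71 FPKM in wild-type crypts and 2.14, 5.63 and 7.34 in ieCtnnb1KO crypts, with library 1 the lowest of either group. In tumors it was at 18.5, 16.2 and 31.04 FPKM in APCmin/+ and 24.8, 22.9 and 28.5 in APCmin/+;ieCtnnb1KO libraries, and control library 3 was the highest. *Egr1* (ENSMUSG00000038418, 2 exons) encodes a zinc finger factor and is not part of AP-1, but is induced by the same signals. It was at 6.24, 2.16 and 13.8 FPKM in wild-type crypts and 2.26, 17.3 and 1.54 in ieCtnnb1KO crypts. The knockout group held both the highest and the lowest crypt library, which differed 11.2 times. In tumors it was at 13.8, 9.19 and 18.4 FPKM in APCmin/+ and 13, 11.7 and 14.8 in APCmin/+;ieCtnnb1KO libraries, and the controls spanned the knockout values.

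**Figure D1:**
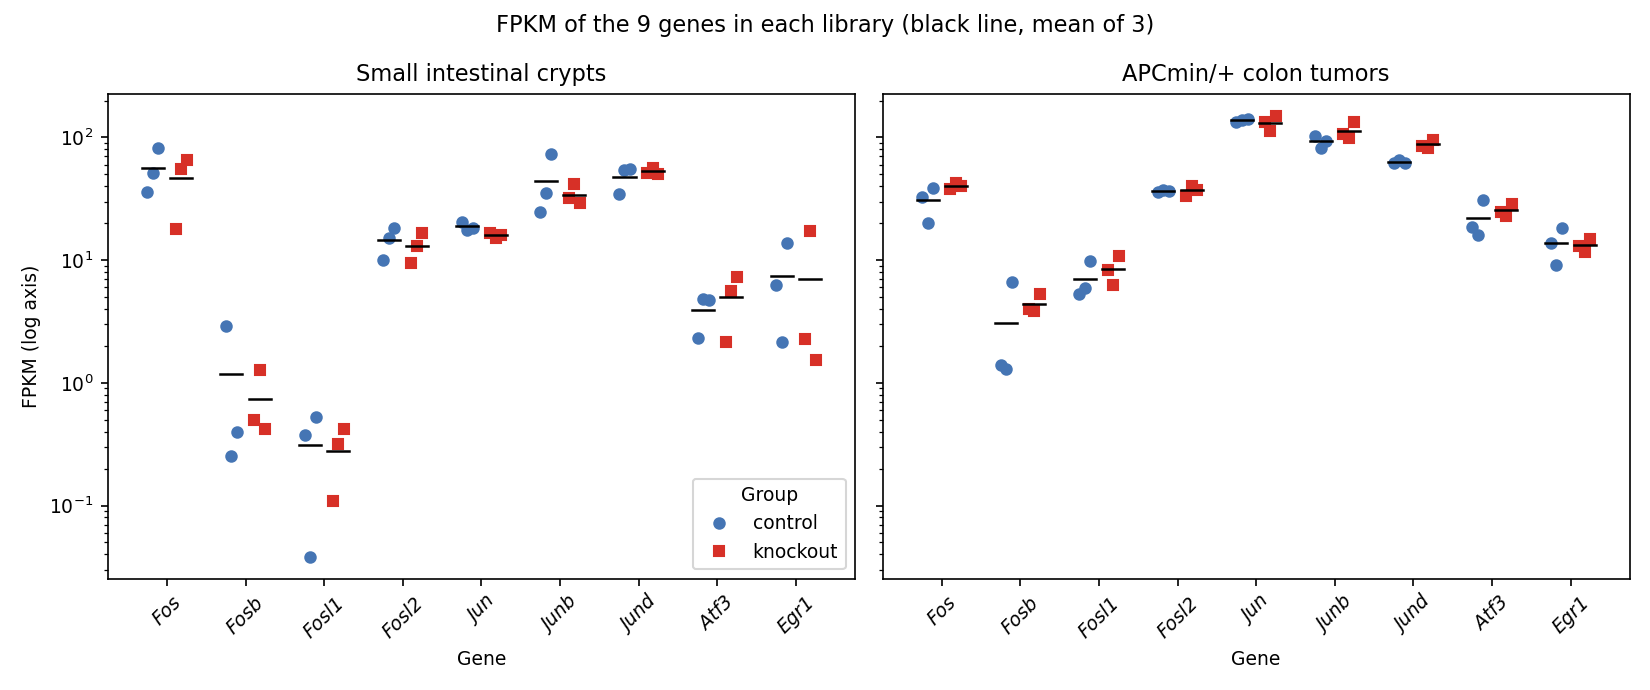
FPKM (log axis) of each of the 9 genes in each library of crypts (left) and tumors (right), with controls as circles, knockout libraries as squares and the mean of 3 as a black line. *Jun* in crypts and *Jund* in tumors are the genes whose groups do not overlap, and *Egr1* in knockout crypts spans 1.54 to 17.3 FPKM.

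Genes that lie across some members share bases with them. *Prdx2* lies on the strand opposite to *Junb* over 351 bases and reached 69 FPKM in crypts and 137 in tumors. *Junos* shares 689 bases with *Jun* on the opposite strand and reached 3.34 FPKM in tumors. Use of strand in counting is not given in the sources used here, so reads in the shared bases cannot be told apart and the levels of *Junb* and *Jun* are uncertain to that extent. Opposite to *Jund* (919 bases) and *Atf3* (108 bases), *Gm11175* and *Gm24748* were listed at 0 in every library.

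The spread between libraries of one group was wide for most of these genes in crypts. It was taken as the residual SD of log2(FPKM + 0.5) within the groups of a tissue. In crypts it was 1.47 for *Egr1*, which placed it at percentile 99.5 of the 14176 genes tested and at 7.65 times the SD that the limma trend gives for its level. *Fosb* (0.915, percentile 96.7), *Fos* (0.823, percentile 95.8), *Atf3* (0.686, percentile 93.6) and *Junb* (0.586, percentile 90.8) followed. *Fosl2* (0.414, percentile 81.9) and *Jund* (0.277, percentile 64.1) were above the middle of all genes, and *Jun* (0.0938, percentile 7.29) was among the steadiest. Thus 7 of the 8 members tested in crypts were above the median gene and 5 of 8 above the 90th percentile.

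In tumors the same measure was lower for most members. Whether a tumor library was made from 1 tumor or several is not given in the sources used here, so residual SDs of the tissues may not measure the same kind of spread. *Fosb* had the widest spread (0.813, percentile 95.7 of 16743 genes), followed by *Fosl1* (0.414, percentile 84.7), *Atf3* and *Egr1* (0.362 each, percentile 80.6) and *Fos* (0.351, percentile 79.8). *Junb* (0.193, percentile 52.4), *Jun* (0.149, percentile 36.4), *Fosl2* (0.0955, percentile 14.3) and *Jund* (0.0864, percentile 10.9) followed, *Junb* near the middle of all genes and the other 3 below it. Here 6 of 9 members were above the median gene and 1 of 9 above the 90th percentile. Residual SD was larger in crypts than in tumors for 7 of the 8 members tested in both, the exception being *Jun*, and for 65.7% of all 13370 genes tested in both (median ratio 1.27). After quantile normalization *Jun* was no exception (0.105 in crypts and 0.0826 in tumors), which made 8 of 8 members and 67.2% of all genes. The ratio of crypt to tumor SD was 4.33 for *Fosl2*, 4.07 for *Egr1*, 3.21 for *Jund*, 3.03 for *Junb* and 2.34 for *Fos*. Levels of the tissues differ, and a wider spread in crypts was not tested.

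**Figure D2:**
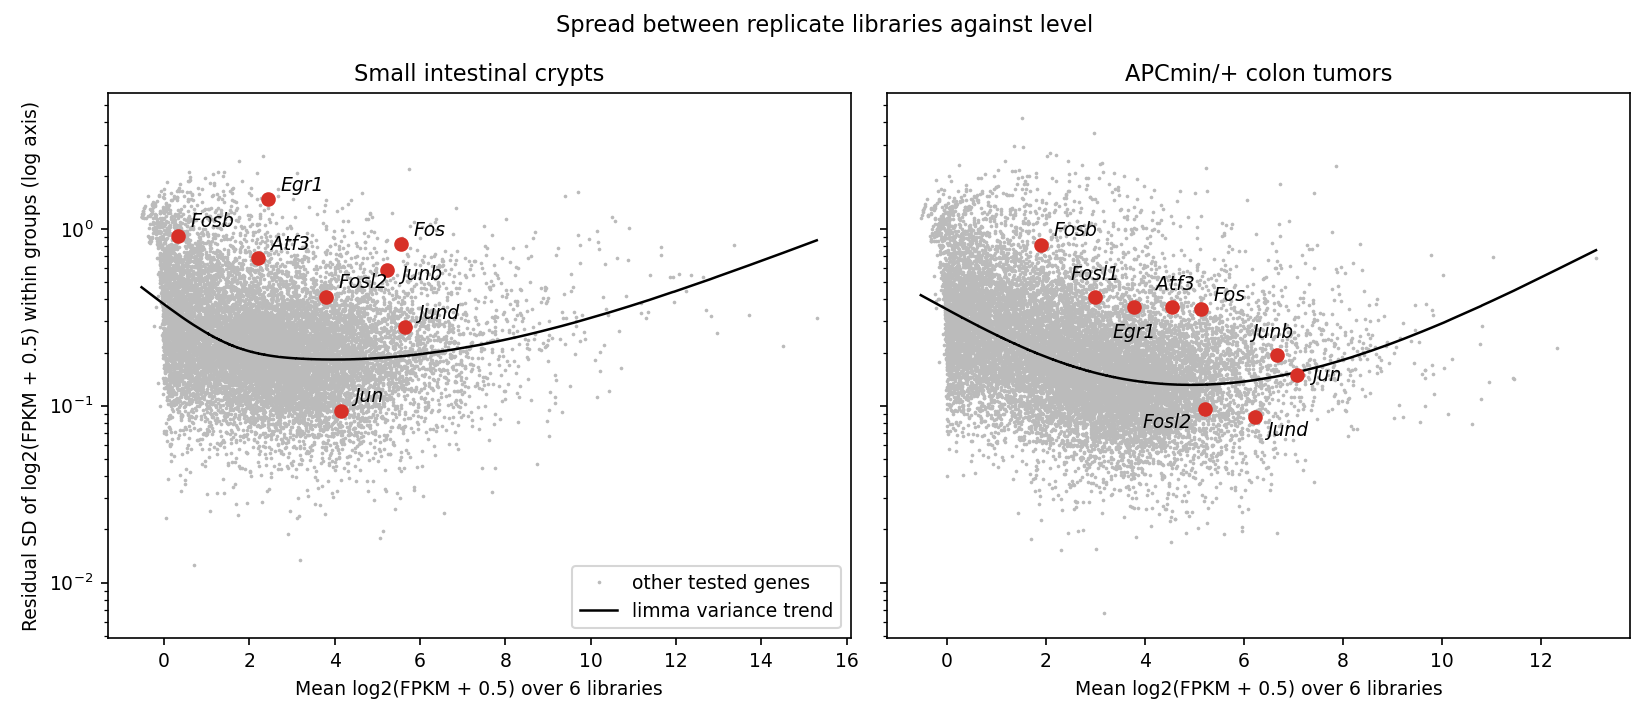
Residual SD of log2(FPKM + 0.5) within groups (log axis) against the mean of log2(FPKM + 0.5) over 6 libraries, with the genes described as large points, other tested genes as small points and the limma variance trend as a line. *Egr1* has a residual SD of 1.47 in crypts and 0.362 in tumors, and *Jun* lies below the line in both panels.

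Members were not all high in the same library. Among wild-type crypts, library 3 had the highest level of 6 of the 9 genes (*Fos*, *Fosl1*, *Fosl2*, *Junb*, *Jund* and *Egr1*), and library 1 the lowest of 5 (*Fos*, *Fosl2*, *Junb*, *Jund* and *Atf3*) but the highest *Fosb* and *Jun*. Among knockout crypts, library 3 was highest for *Fos*, *Fosl1*, *Fosl2* and *Atf3* and lowest for *Fosb*, *Junb*, *Jund* and *Egr1*, for which library 2 was highest. Among tumors, control library 3 was highest for 6 of 9 genes. Knockout library 3 was highest and knockout library 2 lowest for the same 7 of 9, the exceptions being *Fos* and *Fosl2*. Library 3 of either tumor group was also the library with high *Xist*, described above. The part of that difference in these levels was not tested.

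**Figure D3:**
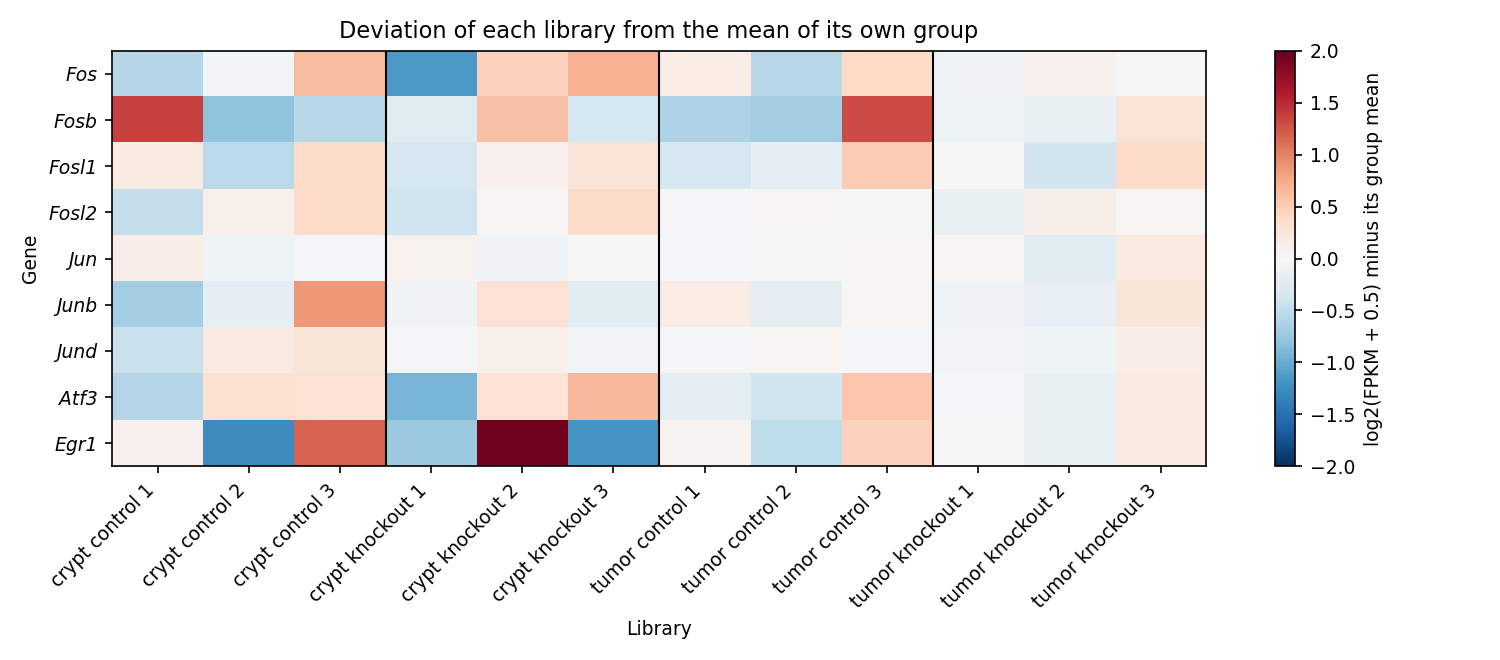
Deviation of log2(FPKM + 0.5) of each gene (vertical axis) in each library (horizontal axis) from the mean of its own group, as color from -2 to 2. Knockout crypt library 2 stands out for *Egr1* and wild-type crypt library 1 and tumor control library 3 for *Fosb*.

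Heat shock genes, which respond to handling and temperature, were set beside these patterns. Their summed level over 14 genes was 1842, 1091 and 935 FPKM in wild-type crypts, 1094, 1633 and 1197 in knockout crypts, 1762, 1779 and 1706 in control tumors and 1794, 1795 and 2612 in knockout tumors, with *Hsp90ab1* the most abundant and none at 0. The inducible *Hspa1b* was at 32.9, 4.5 and 17.8 FPKM in wild-type crypts and 0.438, 32.2 and 4.27 in knockout crypts. Its highest crypt libraries were the same wild-type library 1 and knockout library 2 that had the highest *Fosb* of their groups, whereas *Fos*, *Fosl1* and *Fosl2* were highest in library 3 of both. *Junb*, *Jund* and *Egr1* were highest in wild-type library 3 and knockout library 2. *Jun* was highest in library 1 of both groups, and *Atf3* in wild-type library 2 and knockout library 3. In tumors *Hspa1b* was at 7.58, 5.67 and 5.51 FPKM in controls and 10.2, 18.4 and 42.9 in knockout libraries, which did not overlap. Control library 3, the highest for *Fosb*, had the lowest *Hspa1b* of the tumors, while knockout library 3 was the highest of its group for both genes. *Hspa1a* and *Hspa1b* are near-identical copies, so the split of reads between them is uncertain. The part of tissue handling, mitochondrial share or cell composition in the spread was not tested.

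No member passed the test across all genes in either tissue. In crypts limma called 0 of 14176 genes at an adjusted p under 0.05 (0%). Without adjustment 829 genes (5.85%) had a p under 0.05, 494 higher and 335 lower in the knockout, against 0 of the 8 members tested, and voom on the recovered fragments called 0. Groups did not overlap for 1693 genes (11.9%) and for 1 of the 8 members, *Jun*. In tumors limma called 0 of 16743 genes (0%) and voom 0. Here 2421 genes (14.5%) had an unadjusted p under 0.05, 1417 higher and 1004 lower, against 1 of 9 members, *Jund*, and groups did not overlap for 3693 genes (22.1%) and again for *Jund* alone among the 9. These counts of members are near or under the share over all genes. Rescaled to the same summed FPKM, the unadjusted split became 734 higher and 159 lower in crypts and 731 higher and 1785 lower in tumors. With the 50 highest genes left out of that sum it was 285 higher and 508 lower in crypts and 730 higher and 1953 lower in tumors, and after quantile normalization 372 and 328 in crypts and 1116 and 1282 in tumors, so the larger side depends on the scaling.

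*Jund* in tumors had the smallest p of the members. Its log2 fold change was 0.47 (SE 0.0905, 95% confidence interval 0.25 to 0.69, adjusted p = 0.269 in limma, higher in 3 of 3 knockout libraries), with an unadjusted limma p of 0.00148 and an exact permutation p of 0.1. It was 0.31 after quantile normalization, the lowest of the alternatives. Marker sums of the same tumors are set beside this value. The 8 epithelial markers, led by *Krt8*, summed to 3308, 3209 and 2909 FPKM in controls and 3818, 3807 and 3884 in knockout tumors, with 8 of 8 higher (6 of 8 after quantile normalization) and none at 0. Fibroblast markers, led by *Col1a1*, summed to 372.3, 235.6 and 226.2 FPKM in controls and 371.8, 482.5 and 390.8 in knockout tumors, with 8 of 8 higher. Neutrophil markers, led by *S100a9*, summed to 236.6, 524.6 and 363.3 FPKM in controls and 253.4, 137.4 and 261.6 in knockout tumors, with 5 of 6 lower. Their part in the level of *Jund* was not tested. In bulk tissue fewer cells of a type and less RNA per cell cannot be told apart.

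*Jun* in crypts had a log2 fold change of -0.23 (SE 0.114, 95% confidence interval -0.50 to 0.04, adjusted p = 0.86 in limma, lower in 3 of 3 knockout libraries) and an exact permutation p of 0.1. The value was -0.09 when libraries were rescaled to the same summed FPKM, a setting that moved the median of all crypt genes from 0.01 to 0.14. Marker sums of the same crypts are set beside this value. Enterocyte markers, led by *Fabp2*, summed to 3447, 5840 and 11640 FPKM in wild-type and 8132, 6242 and 9232 in knockout crypts, with 7 of 8 higher (7 to 8 under the other scalings). Paneth and stem cell markers, led by *Defa24*, summed to 19300, 27040 and 51420 FPKM in wild-type and 21480, 17910 and 20920 in knockout crypts, with 6 of 8 lower (5 to 6 under the other scalings). None of the genes of either list was at 0. Stomach genes were lower for 3 of 3 tested. That count rests on wild-type libraries 1 and 2, which alone had high sums, as described above. Colon markers, led by *Car4*, were higher for 2 of 3, with *Hoxb13* and *Prdx6b* at 0. Their part in the level of *Jun* was not tested. Fold changes are on the log2(FPKM + 0.5) scale, which understates those of low genes. A pseudocount of 0.1 moved *Fosb* from 0.75 to 0.89 in tumors but from -0.16 to -0.0901 in crypts. With voom on recovered fragments *Fosb* was at 0.96 in tumors and -0.00795 in crypts.

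The other members had wide intervals in crypts. For *Egr1* the log2 fold change was -0.45 with a 95% confidence interval of -2.62 to 1.71 (adjusted p = 0.965 in limma), and it was -1.42 without knockout library 2, 0.14 without knockout library 3 and 0.13 without wild-type library 3. For *Fos* it was -0.39 (-1.62 to 0.83, adjusted p = 0.936 in limma), and without knockout library 1 it was 0.18. For *Junb* it was -0.24 (-1.12 to 0.65, adjusted p = 0.951 in limma) and without wild-type library 3 it was 0.19. *Fosb* (-0.16), *Fosl2* (-0.14), *Jund* (0.17) and *Atf3* (0.23) had adjusted p-values between 0.927 and 0.985 in limma. Their signs also turned with single libraries left out. *Fosb* was at 0.52 without wild-type library 1 and 0.02 without knockout library 3, and *Fosl2* at 0.05 without wild-type library 3 and 0.06 without knockout library 1. *Jund* was at -0.05 without wild-type library 1, and *Atf3* at -0.06 without that library and -0.09 without knockout library 3. With the same summed FPKM *Fos* was at -0.24, *Junb* at -0.09, *Fosl2* at 0.00464, *Fosb* at -0.11, *Jund* at 0.32 and *Atf3* at 0.37. Quantile normalization gave -0.07 for *Fosb* and 0.06 for *Jund*, and the sum without the 50 highest genes 0.11 for *Jund*. These intervals hold sizeable differences in either direction, so a p above the threshold does not show equal levels.

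In tumors the log2 fold change was 0.75 for *Fosb* (SE 0.524, adjusted p = 0.518 in limma), with 1.40 without control library 3, 0.40 without control library 2 and 0.44 without control library 1. It was 0.44 for *Fos* (SE 0.232, adjusted p = 0.417 in limma), and 0.17 without control library 2. *Junb* (0.28), *Fosl1* (0.26) and *Atf3* (0.26) were higher on the mean with adjusted p-values of 0.411, 0.664 and 0.619 in limma. With single libraries left out, *Junb* lay between 0.15 (without knockout library 3) and 0.36 (without knockout library 2), *Fosl1* between 0.0772 (without knockout library 3) and 0.52 (without control library 3), and *Atf3* between 0.075 (without control library 2) and 0.54 (without control library 3). *Fosl2* (0.01), *Egr1* (-0.02) and *Jun* (-0.07) had intervals of -0.21 to 0.23, -0.59 to 0.55 and -0.36 to 0.23. Among these, *Fosl2* turned to -0.10 when libraries were rescaled to the same summed FPKM and to -0.05 without knockout library 2, *Egr1* to 0.21 without control library 3, and *Jun* to 0.04 without knockout library 2. Scaling also set the size of several of these values. After quantile normalization *Jun* was at -0.30 (adjusted p = 0.298 in limma), *Junb* at 0.11, *Atf3* at 0.17, *Fosl2* at -0.10 and *Egr1* at -0.06. With the same summed FPKM *Jun* was at -0.18, *Junb* at 0.17, *Fosl1* at 0.16, *Atf3* at 0.15 and *Egr1* at -0.12, and leaving the 50 highest genes out of that sum gave -0.18, 0.17, 0.16, 0.15 and -0.13.

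**Figure D4:**
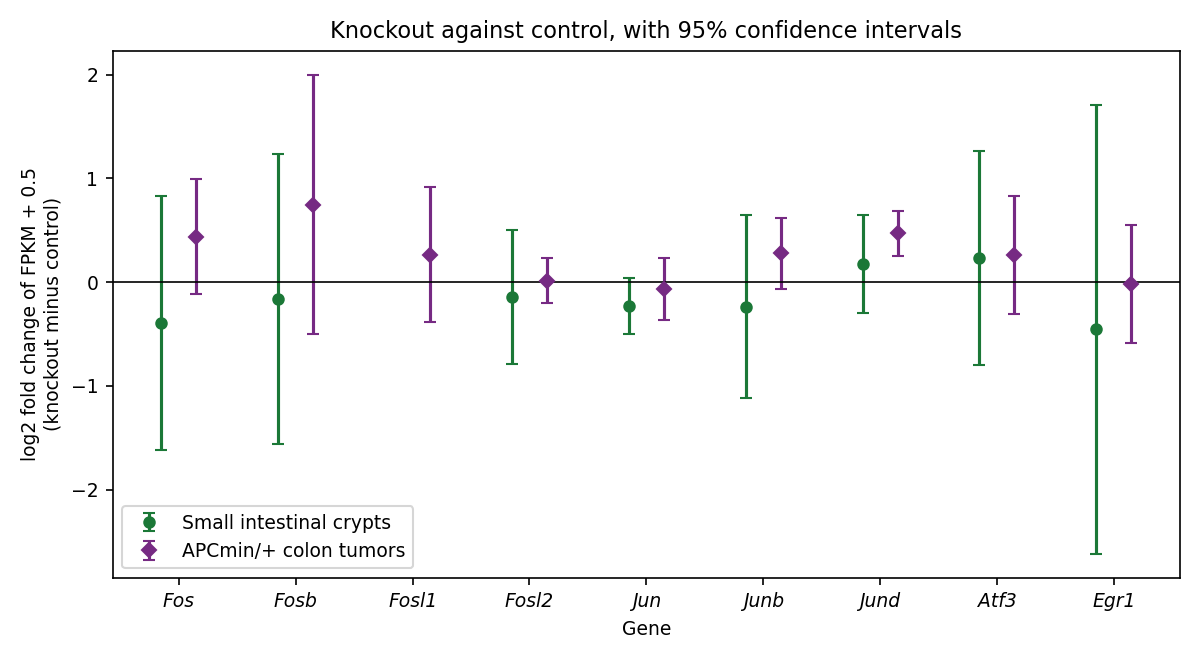
log2 fold change of FPKM + 0.5, knockout minus control (vertical axis), for each gene in crypts (circles) and tumors (diamonds), with 95% confidence intervals from limma as bars. *Fosl1* has no crypt value because it was under the FPKM minimum, and *Jund* in tumors has the interval 0.25 to 0.69.

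The knockout difference in tumors minus that in crypts was tested over all 12 libraries. limma called 0 of 13370 genes (0%) at an adjusted p under 0.05, voom called 0, and 1133 genes (8.47%) had an unadjusted p under 0.05, against none of the 8 members tested. Groups that did not overlap, in opposite directions in the 2 tissues, were found for 109 of these genes (0.815%) and for 0 of the members. The difference was 0.83 for *Fos* (SE 0.629, adjusted p = 0.751 in limma), 0.91 for *Fosb* (SE 0.864, adjusted p = 0.804 in limma) and 0.51 for *Junb* (SE 0.44, adjusted p = 0.779 in limma). For *Jund* it was 0.30 (SE 0.226, adjusted p = 0.753 in limma), so its position in tumors was not shown to differ from that in crypts.

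Levels were ordered within each group. In wild-type crypts the order by mean FPKM was *Fos* (56.3), *Jund* (47.98), *Junb* (44.2), *Jun* (18.8), *Fosl2* (14.5), *Egr1* (7.41), *Atf3* (3.95), *Fosb* (1.18) and *Fosl1* (0.313). Ranges of neighbours overlapped except between *Junb* and *Jun*. Knockout crypts had the same order except that *Jund* (53.05) was ahead of *Fos* (46.4), and neighbours were apart for *Junb* and *Jun*, *Atf3* and *Fosb*, and *Fosb* and *Fosl1*. In control tumors the order was *Jun* (137.8), *Junb* (92.8), *Jund* (63.1), *Fosl2* (36.6), *Fos* (30.7), *Atf3* (21.9), *Egr1* (13.8), *Fosl1* (7.05) and *Fosb* (3.1), with the leading 3 apart from each other and from *Fosl2*, and overlaps below. In knockout tumors *Fos* (40.3) was ahead of *Fosl2* (37.05), overlapping it, and *Jun* overlapped *Junb*, while all other neighbours were apart.

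The tables were normalized separately, so levels are set side by side without a test between tissues. *Jun* lay between 15.2 and 20.6 FPKM in crypts and between 113 and 151 in tumors. *Fosl1* reached 0.523 FPKM at most in crypts and was at least 5.32 in tumors. *Fosl2*, *Junb*, *Jund* and *Atf3* also had ranges that did not overlap and were higher in tumors, whereas those of *Fos*, *Fosb* and *Egr1* overlapped. These 6 of 9 genes stand beside 7735 of the 17549 genes that passed the minimum in either table (44.1%) with every tumor library above every crypt library. Within the Jun family, *Jun* made up 12.5% to 25.8% of the summed FPKM in crypts and 38.3% to 48.7% in tumors. *Jund* made up 20.8%, 22.7% and 20.95% of it in control tumors and 26.1%, 27.9% and 25.2% in knockout tumors, and *Jun* 44.8%, 48.7% and 47.4% in control and 41.1%, 38.3% and 39.7% in knockout tumors. The groups did not overlap for either share, higher in the knockout for *Jund* and lower for *Jun*. Both are parts of one sum, and the deposited FPKM of *Jun* itself overlapped between the groups. The lower share of *Jun* was thus not shown to be a separate difference. The log2 fold change of *Jun* in tumors was -0.07, or -0.30 after quantile normalization. Within the Fos family, *Fos* itself was 64.02% to 80.9% of the sum in crypts and 31.2% to 45.98% in tumors, where *Fosl2* was 39.8% to 57.6%. Tissue, gut region and the Min allele differ together between the tables and cannot be told apart. Age may differ as well, since the crypt mice are described only as adult.

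Related genes were described by counts beside all tested genes, of which 52.8% were higher in knockout crypts (median log2 fold change 0.01) and 51.3% in knockout tumors (median 0.01). The members had 2 of 8 higher in crypts (median -0.19) and 7 of 9 in tumors (median 0.26), or 2 to 3 of 8 and 6 of 9 under the 3 other scalings (the same summed FPKM with and without the 50 highest genes, and quantile normalization). The share of all genes higher in the knockout moved as well, to 73.5%, 41.7% and 51.1% in crypts and 36.7%, 36.6% and 47.6% in tumors under these scalings in turn. No gene of these lists had an adjusted p under 0.05 in limma. Of 36 wider immediate early genes, 13 of the 29 tested were higher in crypts (median -0.08) and 26 of the 34 tested in tumors (median 0.16), which became 7 to 18 of 29 and 20 of 34 under the other scalings. *Socs3*, an inhibitor of cytokine signaling, was lower in all 3 knockout crypts (13.8 ± 1.58 FPKM against 25.5 ± 10.2, SD, n = 3). *Dusp1*, a MAP kinase phosphatase, had a log2 fold change of -0.70 and *Gadd45g* of -0.66 in crypts, where *Mcl1* was the most abundant gene (-0.03). In tumors *Ctgf* was at 22.6, 26.2 and 19.8 FPKM in controls and 43.8, 45.4 and 32.4 in knockout libraries (log2 fold change 0.81, SE 0.162, adjusted p = 0.269 in limma, higher in 3 of 3). *Mcl1* (0.30) and *Klf10* (0.23) had the next smallest p, and *Rhob* was the most abundant (0.08).

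Genes upstream of AP-1 were then examined. Of 24 MAP kinase cascade genes, 17 of 21 tested were higher in knockout crypts (median 0.08) and 14 of 22 in knockout tumors (median 0.12). Under the other scalings these counts were 11 to 20 of 21 and 10 to 11 of 22. *Mapk11* (-0.67), *Mapk13* (0.24) and *Map2k2* (0.23) had the smallest p in crypts, and *Map2k1* (0.37), *Map2k3* (0.33) and *Mapk13* (0.42) in tumors. *Mapk11* averaged 0.7522 FPKM in wild-type and 0.2847 in knockout crypts. It passed the minimum of 0.5 FPKM only through the wild-type group, which favors a lower knockout value. *Mapk3*, which encodes ERK1, was the most abundant in both (0.22 and 0.21). Of 14 SRF, ETS and CREB regulators, 7 of 14 were higher in crypts (median -0.04) and 8 of 14 in tumors (median 0.00486), or 2 to 9 and 2 to 6 under the other scalings. *Crebbp* (0.29), *Crtc2* (-0.18) and *Ep300* (-0.17) had the smallest p in crypts, and *Ep300* (-0.33), *Crtc1* (-0.32) and *Mkl2* (-0.22) in tumors, with *Srf* the most abundant in both (-0.09 and 0.23). Of 18 MAPK feedback inhibitors, 4 of 16 tested were higher in crypts (median -0.13) and 10 of 18 in tumors (median 0.05), or 4 to 8 of 16 and 8 of 18 under the other scalings. *Dusp1*, *Dusp7* (-0.47) and *Dusp5* (0.23) had the smallest p in crypts and *Spred2* (-0.23), *Spry4* (0.57) and *Spry2* (0.26) in tumors, with *Zfp36l2* the most abundant in both (0.21 and 0.15).

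Partners and targets of AP-1 completed the lists. Of 12 other AP-1 and Maf family genes, 3 of 9 tested were higher in crypts (median -0.13) and 7 of 10 in tumors (median 0.32), or 3 to 5 of 9 and 6 of 10 under the other scalings. *Batf2* (0.23), *Atf7* (-0.13) and *Maf* (-0.24), the most abundant, had the smallest p in crypts, and *Batf3* (0.57), *Jdp2* (0.53) and *Atf7* (-0.27) in tumors, where *Mafg* was the most abundant (-0.11). Of 18 AP-1 target genes, 1 of the 9 tested was higher in crypts (median -0.23) and 16 of the 18 in tumors (median 0.27), or 0 to 4 of 9 and 12 to 13 of 18 under the other scalings. *Plaur* (-0.51), *Mmp9* (-0.39) and *Vegfa* (-0.45) had the smallest p in crypts, with *Cdkn1a* the most abundant (-0.07). In tumors *Cdkn1a* (0.47) and *Timp1* (0.47) were among those with the smallest p, with *Mmp10* the most abundant (0.05). Of 14 heat shock genes, 6 were higher in crypts (median -0.07) and 13 in tumors (median 0.34), or 3 to 10 and 12 under the other scalings. *Hspb1* (-0.64), *Dnajb4* (0.25) and *Hspa1b* (-1.46) had the smallest p in crypts, and *Hspa1b* (1.62), *Hspa1a* (1.75) and *Dnajb1* (0.66) in tumors, with *Hsp90ab1* the most abundant in both (0.06 and 0.05). *Hspb1* averaged 0.7735 FPKM in wild-type and 0.319 in knockout crypts, so it passed the minimum of 0.5 FPKM only through the wild-type group.

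**Figure D5:**
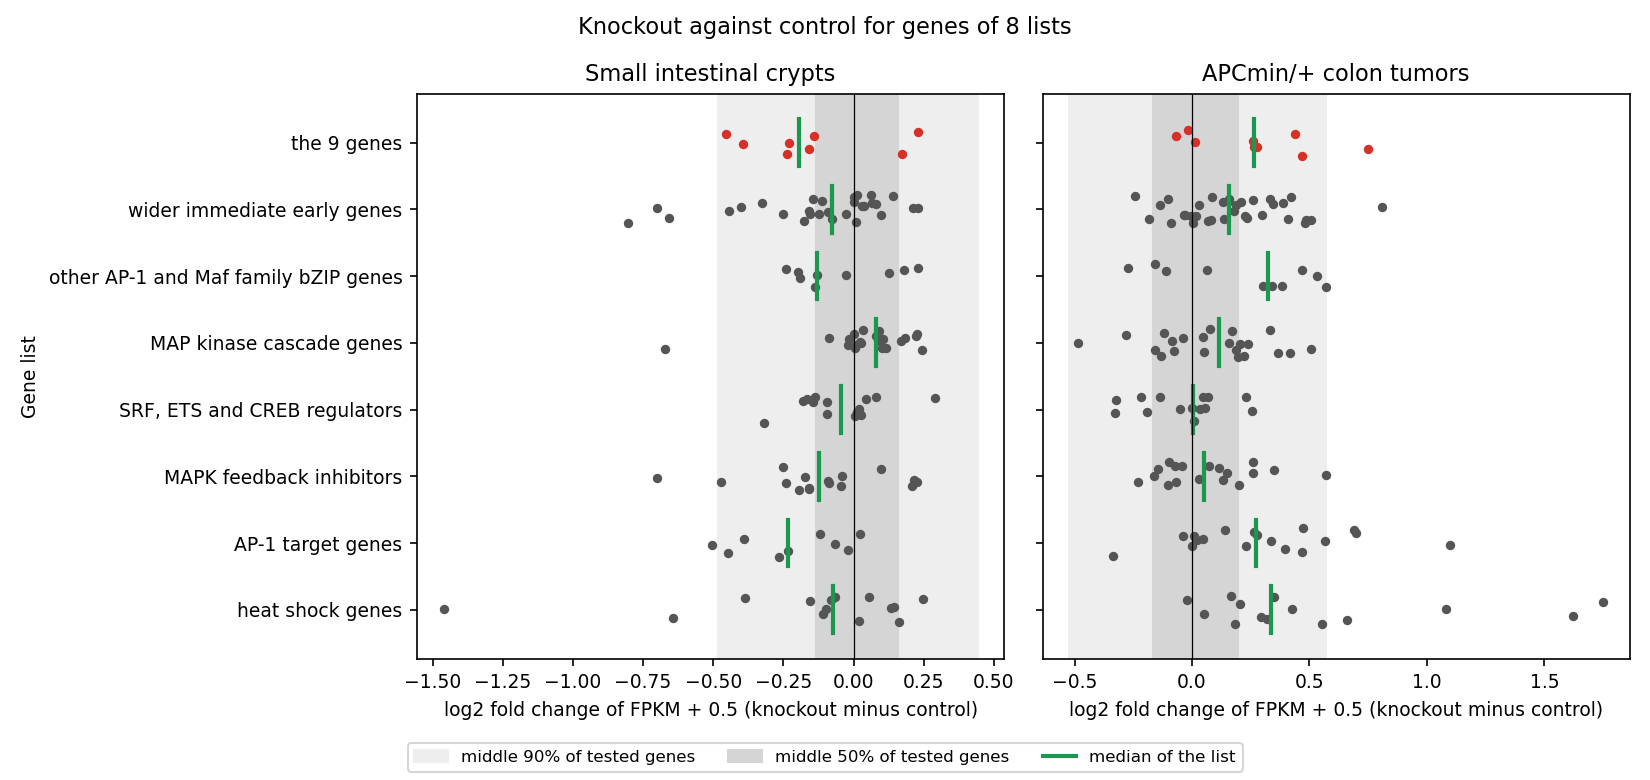
log2 fold change of FPKM + 0.5, knockout minus control (horizontal axis), of each tested gene (points) of 8 lists, with the median of the list as a vertical bar and the middle 50% and 90% of all tested genes as bands; vertical positions within a list are arbitrary. The median of the 9 genes is -0.19 in crypts, where 8 were tested, and 0.26 in tumors.

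Markers of stroma, endothelium and myeloid cells had low sums in crypts and larger sums in tumors, and those of lymphocytes the reverse. Summed FPKM of the fibroblast list was 3.91 to 8.17 in crypts, that of 6 smooth muscle genes 0.375 to 0.923, that of 6 endothelial genes 0.998 to 1.11 and that of 7 macrophage and dendritic cell genes 4.75 to 8.38. In tumors these were 226.2 to 482.5, 129.1 to 179.6, 34.8 to 47.4, and 44.2 to 82.8, led by *Col1a1*, *Acta2*, *Cdh5* and *Cd68*. Neutrophil genes summed to 0.461 FPKM at most in crypts, where *S100a8* and *Ly6g* were listed at 0. Lymphocyte genes summed to 65.1 to 80.6 FPKM in crypts, led by *Cd8a*, and 12.6 to 21.1 in tumors, led by *Trac*. Erythrocyte genes, led by *Hbb-bs*, summed to 4.81 to 18.5 FPKM in crypts, and in tumors to 328, 346 and 246 in controls and 680, 52.9 and 1115 in knockout libraries. The lowest of these was knockout library 2 and the highest knockout library 3, the libraries that were lowest and highest for 7 of the 9 members within that group. Control tumors ran the other way: library 3, with the lowest erythrocyte sum, was highest for 6 of 9 members, and library 2, with the highest sum, was lowest for 5. The part of blood or of any cell type in these levels was not tested. Colon markers summed to 56.1 to 135.9 FPKM in crypts and 157.4 to 318 in tumors, enterocyte markers to 2.17 to 9.54 and crypt cell markers to 1359 to 4077 in tumors, and stomach genes, led by *Atp4a*, to 2.99 to 6.04 in tumors.

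The genes whose deviations from the group mean were most like those of a member were taken from 13370 genes over 12 libraries, by Pearson's r, as a description without a p. For *Fos* they were *Hbegf* (0.98), *Wipf2* (0.963) and *Gm336* (0.943), and for *Atf3* again *Hbegf* (0.939), *Errfi1* (0.916) and *Gprc5a* (0.913). *Hbegf* encodes a ligand of the EGF receptor. It was at 4.08, 6.34 and 9.27 FPKM in wild-type crypts and 2.33, 6.54 and 8.97 in knockout crypts, and at 9.66, 6.92 and 11.8 FPKM in control and 9.64, 10.9 and 12.5 in knockout tumors. Its lowest and highest libraries were those of *Fos* in every group except knockout tumors, where library 3 was highest for *Hbegf* and library 2 for *Fos*. For *Fosl2* they were *Btg2* (0.969), *Gm43858* (0.944) and *Fam102b* (0.941), and for *Fosb* they were *Rela* (0.936), *Mtx2* (0.928) and *Tmem126a* (0.919). *Jun* was most like *Myrf* (0.963), *Crtc2* (0.953) and *Mdh2* (0.942). *Junb* was most like *Fam241b* (0.971), *Ubtd1* (0.966) and *Armc7* (0.96). For *Jund* they were *Sdcbp2* (0.97), *Dnajb5* (0.955) and *Cyp4f16* (0.951), and for *Egr1* they were *AI661453* (0.921), *Plekhg3* (0.915) and *Cep78* (0.909). Values this high are the largest of many over few libraries, and members and the genes named were measured in the same libraries.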

How the data were processed

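Paired-end RNA-seq was run on a NovaSeq instrument. The study's methods give Hisat2 for alignment and featureCounts for counting. The submitters' processing notes name mm10, cutadapt, HISAT2, Cufflinks 2.2.1 and DESeq2 with no role. How FPKM were computed, the annotation and the use of strand are not given in the sources used here. The authors deposited FPKM per gene and library, in a separate table for each tissue, with the length of each gene in bases. FPKM times length was a whole multiple of 1 step per library within 0.01 for 100% of the low values checked, and that step was taken as 1 fragment. Pairs of libraries of a group differed beyond sampling noise (chi-square per degree of freedom 17.9 to 87.8), so none was counted as a duplicate. The members and the gene lists were chosen with earlier results of these data known.

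Genes whose FPKM averaged 0.5 or more over the 6 libraries of a tissue were tested on log2(FPKM + 0.5) with limma 3.58.1 in R 4.3.3, with a variance trend and no covariates, and p-values were adjusted over all tested genes by Benjamini and Hochberg with a threshold of 0.05. The difference between tissues was an interaction term over genes passing in both tables. Members were also compared by an exact two-sided permutation test. The code was tested on simulated data. Named genes were the 9 members and *Ctnnb1* in every library, the 3 genes with the smallest p and the most abundant gene of each pathway list, the most abundant and absent genes of each marker list, and the 3 genes most like each member. A gene that this rule names is not reported here. Alternatives were a pseudocount of 0.1 or 1, no FPKM minimum or a minimum of 1, the same summed FPKM with or without the 50 highest genes, quantile normalization, no variance trend, voom on recovered fragments, the replicate number as a block, and leaving out each library. Promoters were RefSeq windows. Exons and overlaps were taken from GENCODE M21.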

Additional observations from a re-analysis of the deposited data

Results flagged for a closer look

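*Crebbp*, which encodes the CREB-binding coactivator CBP, differed between knockout and control in opposite directions in the 2 tissues, and no other of the 54 named genes looked at (47 tested in both tissues) met this condition. It was at 3.73, 3.41 and 2.69 FPKM in wild-type crypts and 3.9, 4.3 and 4.06 in ieCtnnb1KO crypts. In tumors it was at 7.8, 8.56 and 7.66 FPKM in APCmin/+ and 6.26, 7.4 and 7.23 in APCmin/+;ieCtnnb1KO libraries. All knockout libraries were above the controls in crypts (log2 fold change 0.29, adjusted p = 0.86 in limma) and below them in tumors (-0.19, adjusted p = 0.424 in limma). The tumor difference minus the crypt difference was -0.48 (SE 0.169, adjusted p = 0.555 in limma). It did not pass the threshold over all 13370 genes, of which 109 (0.815%) met the same condition. For *Crebbp*, the groups of 3 libraries were not examined for outlying libraries.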

How the results depend on the processing

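No member passed the adjusted threshold under any alternative run. Of 127 alternative fold changes of the 8 fitted members in crypts 115 kept their direction and 12 reversed (lowest adjusted p = 0.596 in limma), and of 144 in tumors 135 kept it and 9 reversed (lowest adjusted p = 0.186 in limma, *Jund* without APCmin/+ library 1). The counts of kept directions include runs that cannot alter a fold change. These are the runs that changed only the FPKM minimum, the variance trend or the block. *Fosl2* reversed to 0.00464 in crypts and -0.097 in tumors with the same summed FPKM, and in tumors to -0.105 with quantile normalization and -0.0979 with the same sum without the 50 highest genes. Leaving out each library gave ranges in crypts of -0.74 to 0.18 for *Fos*, -0.56 to 0.52 for *Fosb*, -0.38 to 0.0635 for *Fosl2*, -0.58 to 0.19 for *Junb*, -0.0469 to 0.29 for *Jund*, -0.0899 to 0.70 for *Atf3* and -1.42 to 0.14 for *Egr1*, and in tumors of -0.049 to 0.0832 for *Fosl2*, -0.17 to 0.0404 for *Jun* and -0.27 to 0.21 for *Egr1*. Genes called in crypts numbered 0 to 3 when a library was left out, the 3 being *Gkn1*, *Gkn2* and *Pgc* without wild-type library 3, which were named after their values were seen. Without the variance trend 1 tumor gene was called (*Mir3473e*), and for the difference between tissues 1 with a pseudocount of 0.1 (*Trbj1-6*). The cause was not tested. Quantile normalization moved the residual SD in tumors to 0.0826 for *Jun*, 0.127 for *Junb* and 0.0536 for *Jund*. Deviations of same-numbered libraries correlated at -0.0466, -0.122 and 0.037 in crypts and 0.0541, -0.0898 and 0.0525 in tumors. Such values do not settle whether the numbers pair libraries, and tumor library 3 of each genotype shared high *Xist*. With the replicate number as a block 0 genes were called in crypts, 0 in tumors and 1 for the difference between tissues (*Trbj1-3*). *Fosl1* in crypts could not be fitted with an FPKM minimum of 1, quantile normalization, voom, the block or no variance trend, nor *Fosb* in crypts with that minimum, and the 1 to 14 fragments of *Fosl1* limit any statement on it.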

Other observations

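Within knockout tumors, a secreted target of AP-1 differed widely between libraries. *Mmp10*, a matrix metalloproteinase, was at 178.7, 166.2 and 148.5 FPKM in APCmin/+ tumors and 182.3, 76.9 and 346.5 in APCmin/+;ieCtnnb1KO tumors, so that the knockout group held both the lowest and the highest library. It is given as the most abundant gene of its list, and some other genes of the list differed more widely between these libraries. Knockout libraries 2 and 3 also had the lowest and highest erythrocyte sums, 52.9 and 1115 FPKM. The part of blood in the level of *Mmp10* was not tested.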
